A study of Mus musculus with 21 samples.

Results

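The genes described here bring glucose into heart muscle, carry it through glycolysis, interconvert pyruvate and lactate, carry lactate across the plasma membrane and build or break down glycogen. They are 33 of the 46517 Ensembl genes in the deposited count table, chosen by symbol as members of these pathways: 5 glucose transporters, 6 genes from hexokinase to phosphofructokinase, 4 enzymes that make and break down fructose 2,6-bisphosphate, 11 genes of lower glycolysis, 4 lactate genes and 3 glycogen genes. All 33 symbols were found in the table.

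Left ventricles, fresh frozen, from 4 control (Notch3 +/+) and 3 Notch3-/- mice of the strain C57BL/6J aged 10 to 14 months were measured by RNA sequencing. The Notch3-/- mice carry a lacZ insertion in the Notch3 locus in all cells from conception on, and the sex of each mouse is not given. From polyadenylated RNA, cDNA was made and amplified by PCR in plates, cut and tagged with the enzyme Tn5 and sequenced, each mouse giving 3 technical libraries, 21 in total. The comparison asks which transcripts differ in the heart when Notch3, a receptor of vascular mural cells, is missing. The summed counts of the 3 libraries were 3091461, 4638786, 4208205 and 3046326 (controls 1 to 4) and 3828763, 5167869 and 5086740 (Notch3-/- mice 1 to 3). Libraries held 464390 to 2134368 counts in the 12 control libraries and 979804 to 2427783 in the 9 Notch3-/- libraries. Notch3-/- mice 2 and 3 were the deepest of the 7. Without molecular identifiers, reads copied by PCR are not independent molecules, and any interval on a count covers counting error only.

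The adult heart takes most of its energy from fatty acids and a smaller, adjustable part from glucose and lactate, and insulin and contraction raise glucose uptake by moving the transporter GLUT4 to the cell surface. Most steps of glycolysis have several enzymes encoded by different genes, with forms typical of muscle, forms found in most tissues and forms that dominate in the fetal heart. In the overloaded or failing heart the balance often moves toward glucose use and toward the fetal forms, which is why shares between such genes are read as well as levels.

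Notch3 (chr17:32120820-32166852, minus strand, GRCm38) served as a check of the genotype labels. Its counts were 174, 200, 245 and 185 (controls 1 to 4) and 22, 36 and 25 (Notch3-/- mice 1 to 3). Every Notch3-/- mouse lay below every control mouse, and the counts left in the Notch3-/- mice were not 0. By edgeR, in a quasi-likelihood test adjusted over 14324 genes (Benjamini-Hochberg), the log2 difference, Notch3-/- minus control, was -3.16 (SE 0.23, adjusted p 0.00173), with Notch3 lower in 3 of 3 Notch3-/- mice.

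The tissue label was compared with marker lists. The 12 ventricular cardiomyocyte markers all had counts and summed to 37114, 27378, 31482 and 36060.2 (controls 1 to 4) and 36784, 24897 and 26777 (Notch3-/- mice 1 to 3) in CPM, counts scaled to a common library total, with Ttn the most abundant. The 6 atrial markers summed to 60.3, 49.95, 179.5 and 93.8 (controls 1 to 4) and 60.9, 215 and 91.3 (Notch3-/- mice 1 to 3), with Nppa the most abundant and Bmp10 at 0 in the 4 controls. The 10 skeletal muscle markers summed to 9.55, 7.59, 4.47 and 4.01 (controls 1 to 4) and 4.37, 67.1 and 6.43 (Notch3-/- mice 1 to 3), with Atp2a1 the most abundant, Myf6 at 0 in all 7 mice and Myh2 at 0 in the 4 controls. Ventricular markers were thus the largest of these sums by far in every mouse, and Notch3-/- mouse 2 had the highest skeletal muscle sum.

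Notch3-/- mice 1 and 2 stood apart by RNA of a cell type that the tissue label does not name. The 30 hepatocyte markers, all with counts, summed to 145, 279, 81.6 and 113 (controls 1 to 4) and 9705, 19149.8 and 268 (Notch3-/- mice 1 to 3) in CPM. Their most abundant gene, Alb, had 68, 385, 10 and 32 (controls 1 to 4) and 6240, 8913 and 354 (Notch3-/- mice 1 to 3) counts. By this sum Notch3-/- mice 1 and 2 were far above the other 5 mice, and Notch3-/- mouse 3 lay between controls 1 and 2. By the mean log2 CPM of the markers, which weighs each marker alike, Notch3-/- mouse 3 (2.52) lay just above the highest control, mouse 2 (2.48), and in 12 of the 27 markers that could be tested all 3 Notch3-/- mice were above all controls. Of the 27 hepatocyte markers tested, 27 had an unadjusted p under 0.05, all higher, with a median log2 difference of 6.91. The counts, log2 differences and shares of the glucose genes were therefore also computed from Notch3-/- mouse 3 alone against the 4 controls.

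Other cell type lists, as summed CPM, overlapped between the genotypes. The 8 endothelial markers, led by Kdr, gave 1219, 1049, 1208 and 1470.2 (controls 1 to 4) and 1308, 1421 and 1343 (Notch3-/- mice 1 to 3). The 8 vascular smooth muscle markers, led by Des, gave 2294, 1903, 1919.7 and 2268 (controls 1 to 4) and 2066, 1548 and 1733 (Notch3-/- mice 1 to 3), with Notch3-/- mice 2 and 3 below all controls. Most of this sum was Des, with 1536, 1306, 1373 and 1639 (controls 1 to 4) and 1373, 1066 and 1216.5 (Notch3-/- mice 1 to 3). It therefore says little about the other smooth muscle markers. The log2 difference of Des was -0.26, beside a median of -0.22 over the ventricular cardiomyocyte markers. The 7 fibroblast markers, led by Dcn, gave 1425, 1223, 1182 and 1194 (controls 1 to 4) and 1333, 1421 and 1709.9 (Notch3-/- mice 1 to 3). Macrophage markers (7, led by Lyz2) gave 516, 448, 558 and 523 (controls 1 to 4) and 555, 524 and 598 (Notch3-/- mice 1 to 3). Red blood cell markers (6, led by Hbb-bs) gave 469.9, 355, 354 and 547 (controls 1 to 4) and 303, 476 and 206 (Notch3-/- mice 1 to 3). Adipocyte markers (7, led by Cidec) gave 0.988, 1.9, 0.47 and 12.02 (controls 1 to 4) and 6.01, 21.4 and 0.189 (Notch3-/- mice 1 to 3), low in all mice. Single markers did not always follow these sums. At an unadjusted p under 0.05, against 7.34% of all genes higher and 3.05% lower, 2 of the 6 smooth muscle markers tested were lower (Myh11 at -2.485, with the 3 Notch3-/- mice below all controls, and Tagln at -0.93, as log2 differences). Of the 7 fibroblast markers 3 were higher (Col3a1 at 0.79 and Col1a1 at 0.62, with the 3 Notch3-/- mice above all controls, and Col1a2 at 0.41). Lower was 1, Dcn (-0.26), with the 3 Notch3-/- mice below all controls. Of the other lists in this paragraph, endothelial markers had 0, macrophage markers 1 higher (Mrc1 at 0.37) and red blood cell markers 2 lower (Hba-a1 at -0.60 and Hbb-bs at -0.52). The 3 Notch3-/- mice were above all controls for Mrc1 and below all controls for Hbb-bs. These single markers, apart from Dcn and Hbb-bs, were chosen after their values were seen. In bulk tissue, fewer cells of a type and less RNA per cell cannot be told apart, and this holds for every level given here. The part of these cell types in the differences between genotypes was not tested. Fits with Notch3-/- mouse 3 alone and with the hepatocyte markers as a covariate are given as alternatives. This covariate, the mean log2 CPM of the markers, was 1.19, 2.48, 0.26 and 0.56 (controls 1 to 4) and 7.99, 9.14 and 2.52 (Notch3-/- mice 1 to 3). It rose with genotype, so the fit with it cannot tell hepatocyte RNA and genotype apart.

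Across all 14324 genes that passed the filter on low counts, edgeR called 1 gene, Notch3, at an adjusted p under 0.05 and a fold change of at least 1.5, which is 0.00698% of the genes. At an unadjusted p under 0.05, 1051 genes (7.34%) were higher and 437 (3.05%) were lower in Notch3-/- mice. The count of calls rested on Notch3-/- mouse 3: without it edgeR called 936 genes, with 1748 higher and 700 lower at an unadjusted p under 0.05. Without Notch3-/- mouse 2, 629 genes were higher at that threshold. DESeq2 called 597 of 28735 genes tested on the same 7 mice, a change of both the tool and the filter. EdgeR on every gene with a count called 639 of 28790. Within the mice labelled k, and with the hepatocyte markers as a covariate, edgeR called 0 genes, so that Notch3 was not called either.

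Of the 33 glucose genes, 32 passed the filter and Aldoc did not. EdgeR called 0 of the 32, with 0 higher and 1 lower (Ldhb) at an unadjusted p under 0.05, and DESeq2 also called 0, with 2 genes (Ldhb and Aldoc) under that unadjusted threshold. Limma-voom on the 7 mice called 0 as well, with Ldhb under 0.05. The log2 difference was above 0 for 8 genes and below 0 for 24. Among all genes tested, 7216 (50.4%) were below 0. The median log2 difference was -0.13 over the 32 genes and -0.0028 over all genes tested. The 12 ventricular cardiomyocyte markers were all below 0 as well, with a median of -0.22 and none at an unadjusted p under 0.05. Set against the control mean, their median on the log2 scale was 0.045, -0.39 and -0.32 (Notch3-/- mice 1 to 3), beside -0.025, -0.23 and -0.033 for the glucose genes, and whether the 2 sets fell together was not tested. In 32 of the 33 genes the groups overlapped, and in 1, Pgk1, the 3 Notch3-/- mice lay below the 4 controls, a pattern that 566 genes (3.95%) had. No glucose gene had all 3 Notch3-/- mice above all controls, against 653 genes (4.56%).

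The precision of these differences was similar for most of the genes. Standard errors ran from 0.10 for Slc16a1 to 0.67 for Eno2 on the log2 scale, with a median of 0.14, and 25 of 32 were under 0.2. The 95% interval of 31 of the 32 differences includes 0. With Notch3-/- mouse 3 alone the median of the 32 genes was -0.037, against -0.0175 over all genes tested. With the hepatocyte markers as a covariate it was -0.11, against -0.030 over all genes tested. The labels of 5 mice start with k and those of controls 1 and 2 with X, for a reason the labels do not state. Within the 5 mice labelled k the median was -0.13. No Notch3-/- mouse carries the X label, so a comparison within that label was not possible.

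**Figure D1:**
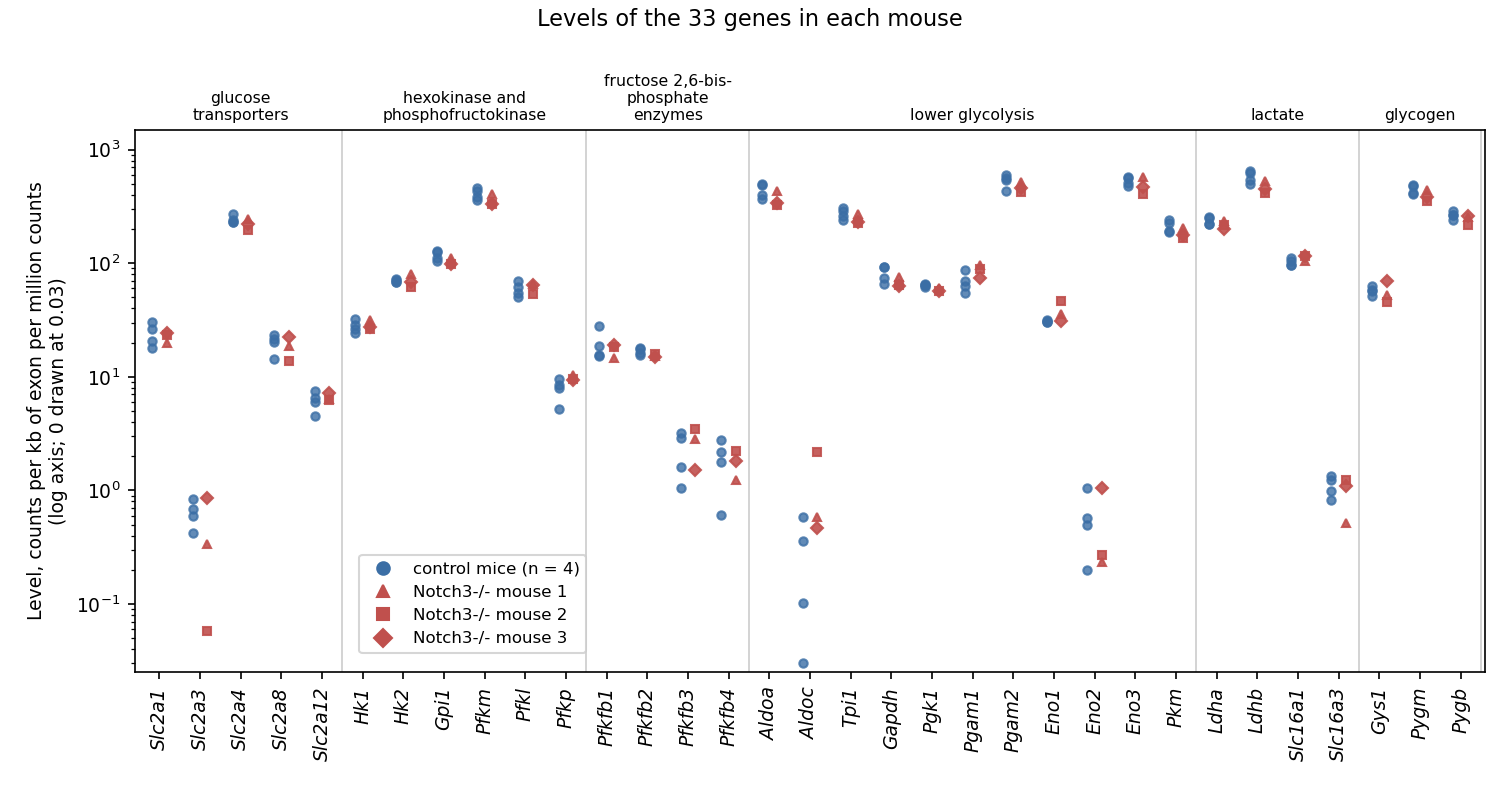
Level of each of the 33 genes in each mouse, in CPM per kilobase of exon on a log axis, by role; circles are the 4 control mice and the other symbols the 3 Notch3-/- mice. Levels span from under 1 (Aldoc, Eno2, Slc2a3) to over 400 (Ldhb, Pgam2, Eno3), and the genotypes overlap for 32 of 33 genes.

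To compare genes with each other, a level was computed as TMM-scaled CPM per kilobase of exon. By mean control level the order began with Ldhb (576), Pgam2 (534), Eno3 (531), Pygm (446), Aldoa (438) and Pfkm (408). It ended with Slc16a3 (1.1), Slc2a3 (0.637), Eno2 (0.578) and Aldoc (0.261). The leading levels belong to the forms typical of muscle or heart. Of the 32 pairs of neighbours in this order, 26 overlapped between the 4 control mice and 6 did not. The 6 were Pfkm above Tpi1, Pkm above Gpi1, Slc16a1 above Gapdh, Gys1 above Eno1, Pfkfb2 above Pfkp and Slc2a12 above Pfkfb3. This order depends on the length used: all annotated exons together were up to 4.12 times as long as the longest coding transcript (Pfkfb2). With that transcript as the length, an alternative chosen after seeing the data, Aldoa (823) came before Ldhb (693), and of the 6 pairs only Pkm above Gpi1 and Pfkfb2 above Pfkp remained apart. Gapdh (263) then lay above Slc16a1 (102) in every control, and the other 3 pairs overlapped. Summed over the 33 genes the level was 5326, 4432, 4673 and 5338 (controls 1 to 4) and 4914, 4024 and 4283 (Notch3-/- mice 1 to 3). Notch3-/- mice 2 and 3 had the lowest sums, mouse 1 lay among the controls, and the groups overlapped.

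Glucose enters through the transporters. Slc2a4 (chr11:69942539-69948188, minus strand, GRCm38), which encodes the insulin-responsive GLUT4, had levels of 239, 229, 230.0 and 270.5 (controls 1 to 4) and 244, 194 and 219 (Notch3-/- mice 1 to 3). Its mean level was 242 ± 19.4 (SD, n = 4) in control and 219 ± 25.0 (SD, n = 3) in Notch3-/- mice. Below all controls were Notch3-/- mice 2 and 3, while mouse 1 lay among them. The log2 difference of Slc2a4 was -0.14 (SE 0.11, 95% interval -0.39 to 0.10). Slc2a1, which encodes GLUT1, the transporter of basal uptake and of the fetal heart, had levels of 26.3, 30.1, 18.1 and 20.8 (controls 1 to 4) and 19.7, 23.2 and 24.2 (Notch3-/- mice 1 to 3). The 3 Notch3-/- mice lay within the control range, and the log2 difference was -0.089 (SE 0.19). It was 0.20 within the mice labelled k, 0.041 without control mouse 2 and 0.023 with Notch3-/- mouse 3 alone, so its sign changed with the choice of mice. Slc2a8 (GLUT8, a transporter of inner membranes) and Slc2a12 (GLUT12) had control means of 19.9 and 6.11 and log2 differences of -0.13 and 0.12. The sign of the Slc2a8 difference changed to 0.039 without Notch3-/- mouse 2, and that of Slc2a12 to -0.0009 without control mouse 4. Slc2a3, the GLUT3 gene of neurons and blood cells, had 13, 29, 13 and 15 (controls 1 to 4) and 9, 2 and 33 (Notch3-/- mice 1 to 3) counts, too few for its level to be ordered between the genotypes.

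Hexokinase traps glucose in the cell as glucose 6-phosphate. Hk2, the form typical of insulin-responsive muscle, had levels of 68.96, 72.8, 68.2 and 71.2 (controls 1 to 4) and 80.02, 61.1 and 68.9 (Notch3-/- mice 1 to 3). Notch3-/- mouse 1 was above and mouse 2 below all controls, and the log2 difference was -0.0059 (SE 0.11, 95% interval -0.26 to 0.25). Hk1, found in most tissues, had a mean level of 27.8 ± 3.42 (SD, n = 4) in control and 28.3 ± 2.77 (SD, n = 3) in Notch3-/- mice and a log2 difference of 0.027. Leaving out 1 mouse changed the sign of both differences, between -0.11 and 0.082 for Hk2 and between -0.054 and 0.10 for Hk1. Gpi1, which turns glucose 6-phosphate into fructose 6-phosphate, had levels of 125, 112, 105 and 128 (controls 1 to 4) and 112, 98.03 and 97.5 (Notch3-/- mice 1 to 3). In Notch3-/- mice 2 and 3 the level was below all controls, and the log2 difference was -0.20 (SE 0.11, 95% interval -0.44 to 0.041).

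Phosphofructokinase commits the sugar to glycolysis, and its 3 genes encode the muscle, liver and platelet forms. Pfkm (chr15:98092589-98132451, plus strand), the muscle form, had levels of 434, 361, 379 and 460.5 (controls 1 to 4) and 406, 333 and 335 (Notch3-/- mice 1 to 3). Notch3-/- mice 2 and 3 lay below all controls, and the log2 difference was -0.19 (SE 0.12, 95% interval -0.46 to 0.076). Pfkl, the liver form, had a mean level of 58.8 ± 8.54 (SD, n = 4) in control and 61.1 ± 6.83 (SD, n = 3) in Notch3-/- mice, with a log2 difference of 0.055. This sign turned to -0.025 without control mouse 3 and to -0.0002 without Notch3-/- mouse 1. Pfkp, the platelet form, had levels of 5.16, 8.01, 8.39 and 9.6 (controls 1 to 4) and 10.4, 9.54 and 9.37 (Notch3-/- mice 1 to 3). Control mouse 1 was low, and the 3 Notch3-/- mice lay near or above the highest control. Its log2 difference was 0.33 (SE 0.19, 95% interval -0.11 to 0.76), and within the mice labelled k, which leave out control mouse 1, it was 0.12.

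The 4 Pfkfb genes encode the enzymes that set the level of fructose 2,6-bisphosphate, the activator of phosphofructokinase. Pfkfb2, the heart form, had levels of 15.6, 17.5, 17.9 and 16.2 (controls 1 to 4) and 15.1, 15.98 and 14.9 (Notch3-/- mice 1 to 3). Notch3-/- mice 1 and 3 lay just below all controls and mouse 2 within them, with a log2 difference of -0.13 (SE 0.12). Pfkfb1, the form of liver and muscle, had levels of 27.9, 18.7, 15.5 and 15.2 (controls 1 to 4) and 14.8, 18.4 and 18.97 (Notch3-/- mice 1 to 3). Control mouse 1 was the highest of the 7, and the log2 difference of -0.15 (SE 0.22) became 0.076 without it. Pfkfb3, the inducible form, and Pfkfb4 were low, with control means of 2.18 and 1.84. Their log2 differences, 0.26 (SE 0.41) and -0.077 (SE 0.44), changed sign when single mice were left out, to -0.017 without Notch3-/- mouse 2 for Pfkfb3 and to 0.19 without control mouse 2 for Pfkfb4.

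Lower glycolysis begins with aldolase. Aldoa (chr7:126795234-126800751, minus strand), the form of muscle and of most tissues, had levels of 495, 365, 401 and 491 (controls 1 to 4) and 434, 322 and 336 (Notch3-/- mice 1 to 3). The 2 shallowest mice, controls 1 and 4, were the highest, and the 2 deepest, Notch3-/- mice 2 and 3, the lowest. The log2 difference was -0.27 (SE 0.15, 95% interval -0.59 to 0.062). Aldoc, the brain form, had 0, 9, 5 and 1 (controls 1 to 4) and 7, 34 and 8 (Notch3-/- mice 1 to 3) counts and was not tested by edgeR with the filter. Notch3-/- mouse 2 had the most counts, and the groups overlapped. Tpi1, which interconverts the 2 triose phosphates, had levels of 307, 240.3, 262 and 289.5 (controls 1 to 4) and 268, 225 and 229.7 (Notch3-/- mice 1 to 3), with Notch3-/- mice 2 and 3 below all controls and a log2 difference of -0.19 (SE 0.12). Gapdh, which makes the first NADH of the pathway, had levels of 92.98, 65.3, 73.8 and 91.8 (controls 1 to 4) and 76.2, 63.8 and 63.2 (Notch3-/- mice 1 to 3). As for Aldoa, controls 1 and 4 were high and Notch3-/- mice 2 and 3 low, with a log2 difference of -0.26 (SE 0.15, 95% interval -0.59 to 0.078).

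Pgk1 (chrX:106187100-106203699, plus strand), which makes the first ATP of the pathway, had levels of 64.3, 61.8, 64.7 and 66.2 (controls 1 to 4) and 61.01, 57.1 and 57.3 (Notch3-/- mice 1 to 3). All 3 Notch3-/- mice lay below all 4 controls, by a narrow gap between control mouse 2 and Notch3-/- mouse 1. By edgeR, in the quasi-likelihood test adjusted over all genes (Benjamini-Hochberg), the log2 difference was -0.14 (SE 0.11, 95% interval -0.39 to 0.12, adjusted p 0.72), lower in 3 of 3 mice. With technical library 1 alone it was 0.050. Of the phosphoglycerate mutases, Pgam2, the muscle form, had levels of 601, 431, 536 and 568 (controls 1 to 4) and 522, 419.7 and 459 (Notch3-/- mice 1 to 3). Below all controls was Notch3-/- mouse 2, and the log2 difference was -0.19 (SE 0.14). Pgam1, the form of brain and most tissues, had levels of 54.7, 69.7, 62.8 and 87.96 (controls 1 to 4) and 96.8, 89.2 and 73.9 (Notch3-/- mice 1 to 3). Notch3-/- mice 1 and 2 lay above all controls and mouse 3 above 3 of 4, with a log2 difference of 0.33 (SE 0.18, 95% interval -0.061 to 0.73). EdgeR's quasi-likelihood test gave Pgam1 an adjusted p of 0.547 over all genes. The 2 mice above all controls are those with hepatocyte RNA, and the difference was 0.11 with Notch3-/- mouse 3 alone, 0.10 with the hepatocyte markers as a covariate and 0.20 within the mice labelled k.

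Enolase has a muscle form, a form of most tissues and of the fetal heart, and a neuronal form. Eno3 (chr11:70657202-70662513, plus strand), the muscle form, had levels of 576, 475, 506 and 565 (controls 1 to 4) and 570.3, 408 and 465 (Notch3-/- mice 1 to 3). Levels in Notch3-/- mice 2 and 3 were below all controls and mouse 1 near the highest control, with a log2 difference of -0.14 (SE 0.13). Eno1 (chr4:150236721-150248879, plus strand), the form of most tissues, had levels of 30.2, 30.5, 31.3 and 31.2 (controls 1 to 4) and 35.9, 46.6 and 31.1 (Notch3-/- mice 1 to 3). The 4 controls were nearly equal, Notch3-/- mice 1 and 2 lay above them and mouse 3 among them. Its log2 difference was 0.30 (SE 0.15, 95% interval -0.028 to 0.62), with an adjusted p of 0.507 in edgeR's quasi-likelihood test (Benjamini-Hochberg) and 2 of 3 mice above all controls. The 2 mice with high Eno1 are again the 2 with hepatocyte RNA. With the hepatocyte markers as a covariate the difference was -0.067, and with Notch3-/- mouse 3 alone it was 0.015. For Pgam1 and Eno1 alike, the covariate fit cannot tell hepatocyte RNA and genotype apart. Eno2, the neuronal form, was near 0, with 15, 11, 4 and 8 (controls 1 to 4) and 4, 6 and 26 (Notch3-/- mice 1 to 3) counts. Pkm, the pyruvate kinase of muscle, whose splice forms a gene count cannot separate, had levels of 225, 193, 189 and 239 (controls 1 to 4) and 206, 168 and 176 (Notch3-/- mice 1 to 3). Below all controls were Notch3-/- mice 2 and 3, with a log2 difference of -0.21 (SE 0.12).

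Lactate dehydrogenase interconverts pyruvate and lactate, and the B subunit is the form that dominates in heart. Ldhb (chr6:142490249-142507957, minus strand) had levels of 649, 493, 535 and 627 (controls 1 to 4) and 524, 413 and 452 (Notch3-/- mice 1 to 3). Its mean level was 576 ± 74.2 (SD, n = 4) in control and 463 ± 56.4 (SD, n = 3) in Notch3-/- mice. Controls 1 and 4 were the highest, Notch3-/- mice 2 and 3 lay below all controls, and mouse 1 lay between controls 2 and 3, so the groups overlapped. The log2 difference was -0.32 (SE 0.13, 95% interval -0.61 to -0.025), with an unadjusted p of 0.0359 in edgeR's quasi-likelihood test and an adjusted p of 0.446 over all genes (Benjamini-Hochberg), below controls in 2 of 3 mice. This is the smallest adjusted p among the 32 genes. Ldha, the A subunit of skeletal muscle and most tissues, had levels of 254, 220.2, 220.2 and 251 (controls 1 to 4) and 237, 216 and 198 (Notch3-/- mice 1 to 3). In Notch3-/- mice 2 and 3 the level was below all controls, with a log2 difference of -0.12 (SE 0.11).

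Lactate crosses the membrane through monocarboxylate transporters. Slc16a1, which encodes MCT1, the main one of heart, had levels of 96.1, 104, 112 and 97.3 (controls 1 to 4) and 105, 116 and 116 (Notch3-/- mice 1 to 3). Notch3-/- mice 2 and 3 lay above all controls and mouse 1 among them, with a log2 difference of 0.14 (SE 0.10, 95% interval -0.087 to 0.36), a difference of -0.076 with technical library 1 alone. Slc16a3, which encodes MCT4, the exporter of glycolytic muscle, was near 1 in level, with 16, 34, 28 and 13 (controls 1 to 4) and 10, 31 and 31 (Notch3-/- mice 1 to 3) counts.

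Of the glycogen genes, Gys1, the glycogen synthase of muscle, had levels of 51.8, 56.6, 57.6 and 63.4 (controls 1 to 4) and 51.98, 45.5 and 69.1 (Notch3-/- mice 1 to 3). Notch3-/- mouse 2 was the lowest and mouse 3 the highest of the 7, and the log2 difference was -0.047 (SE 0.15), with 0.080 without Notch3-/- mouse 2. Pygm (chr19:6384399-6398459, plus strand), the muscle glycogen phosphorylase, had levels of 477, 407, 414 and 486 (controls 1 to 4) and 440.5, 356 and 382 (Notch3-/- mice 1 to 3). Notch3-/- mice 2 and 3 lay below all controls, with a log2 difference of -0.18 (SE 0.11, 95% interval -0.43 to 0.065). Pygb, the brain and fetal form, had levels of 291, 239.8, 266 and 264 (controls 1 to 4) and 257, 216 and 258 (Notch3-/- mice 1 to 3). Notch3-/- mouse 2 lay below all controls and the other Notch3-/- mice within them, with a log2 difference of -0.12 (SE 0.11).

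**Figure D2:**
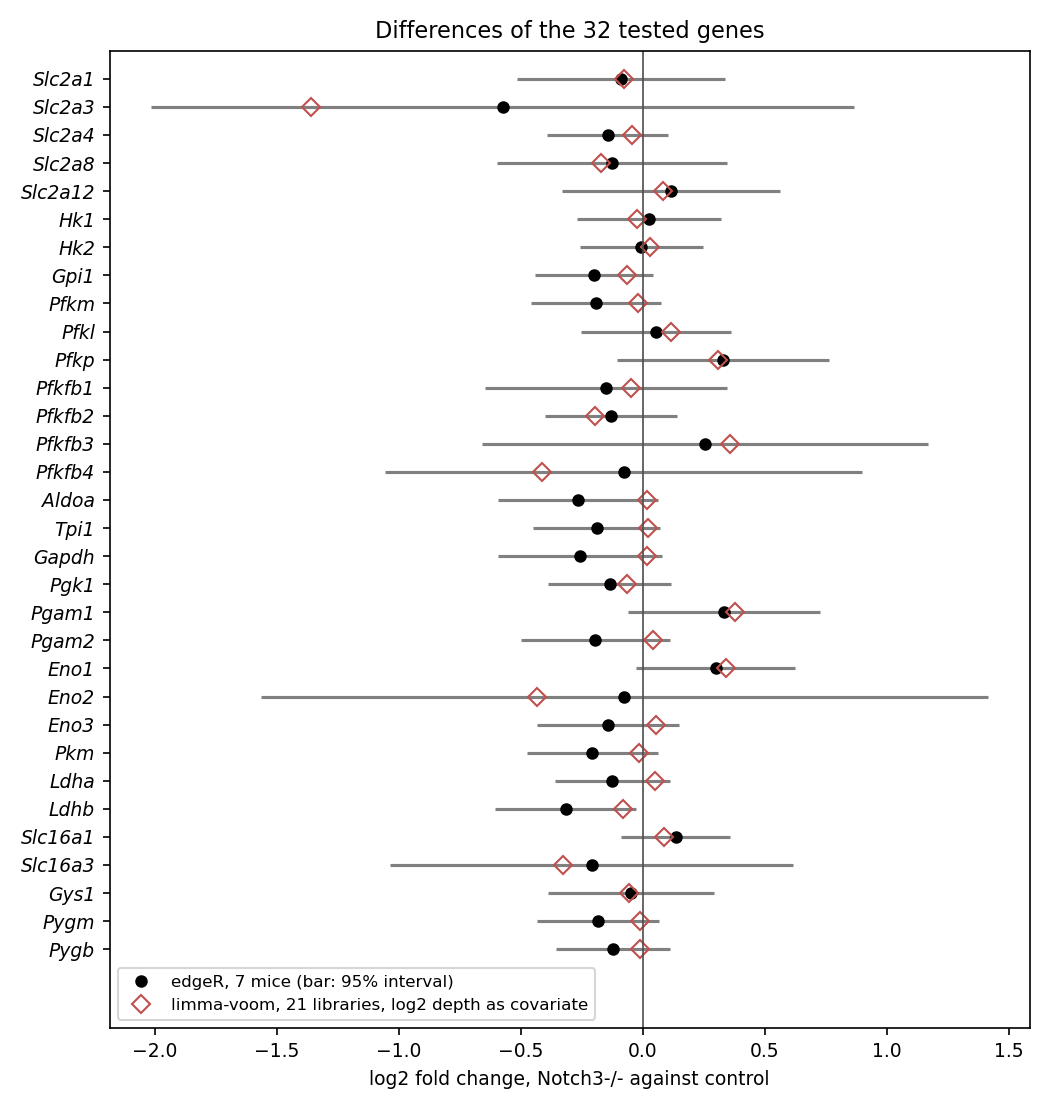
Log2 fold change, Notch3-/- against control, of the 32 tested genes by edgeR on the 7 mice (filled circles, with bars for the 95% interval) and by limma-voom on the 21 libraries with log2 depth as a covariate (open diamonds). Of the 32 intervals, 31 include 0 and that of Ldhb does not. In the second fit, which differs in tool, unit and covariate, Ldhb, Aldoa, Gapdh and Pgam2 lie closer to 0. Pgam1 and Eno1 lie farther from it, and Pfkp moves from 0.33 to 0.31. In limma-voom on the 21 libraries without depth, not drawn, Pfkp was at 0.34, Pgam1 at 0.35 and Eno1 at 0.28.

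Mouse by mouse, Notch3-/- mouse 1 had 5 of the 33 genes below all 4 controls and 5 above, mouse 2 had 18 below and 5 above, and mouse 3 had 13 below and 3 above. Over all tested genes the shares were 22.3% below and 23.8% above in mouse 1, 27.3% and 29.2% in mouse 2 and 21.03% and 19.97% in mouse 3. In 12 of the 33 genes both mouse 2 and mouse 3 lay below all controls, a pattern that 9.42% of all tested genes had. These 12 are Slc2a4, Gpi1, Pfkm, Aldoa, Tpi1, Gapdh, Pgk1, Eno3, Pkm, Ldha, Ldhb and Pygm. They include a transporter, genes of upper and lower glycolysis, both lactate dehydrogenase genes and a glycogen phosphorylase, but no hexokinase and no phosphoglycerate mutase, and 11 of them are among the 13 genes with a negative depth slope described next.

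Scaled counts of many of these genes moved with the depth of the library within the same mouse. For each gene a slope of log2 CPM on the log2 total of the library was fitted over the 21 libraries with an intercept for each mouse, so that the genotype does not enter. The slope was -0.71 (SE 0.047) for Aldoa, -0.66 (SE 0.047) for Gapdh, -0.56 (SE 0.059) for Ldhb and -0.56 (SE 0.10) for Pgam2. It was 0.25 (SE 0.11) for Slc16a1, 0.20 (SE 0.092) for Pfkp and 0.10 (SE 0.13) for Pgam1. By these slopes CPM of the first 4 genes fell with depth within a mouse, though not between every pair of libraries. Pgam2 in control mouse 1 was at 444 CPM in the library of 914165 counts and at 511 in that of 1181948. Without the shallowest library, of control mouse 4, the slopes of Aldoa, Gapdh and Ldhb were -0.83, -0.79 and -0.70. Of the 32 tested genes, 13 had a negative slope beyond 2 SE, and all 13 had a log2 difference between genotypes below 0. Over all genes tested, 517 (3.61%) had such a negative slope, of which 410 (79.3%) had a difference below 0. A positive slope beyond 2 SE was found in 2487 (17.4%), of which 1485 (59.7%) had a difference above 0. The 13 glucose genes with a negative slope are Slc2a4, Gpi1, Pfkm, Aldoa, Tpi1, Gapdh, Pgam2, Eno3, Pkm, Ldha, Ldhb, Pygm and Pygb. Slc16a1 and Pfkp had a positive slope beyond 2 SE, both with a log2 difference above 0, and 17 genes were within 2 SE. Without the shallowest library 11 slopes were negative beyond 2 SE, all with a log2 difference below 0. The 4 positive ones were then Hk1 and Slc16a1, with a difference above 0, and Slc2a3 and Slc2a8, with one below 0, while Pfkp was within 2 SE (0.24, SE 0.13).

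**Figure D3:**
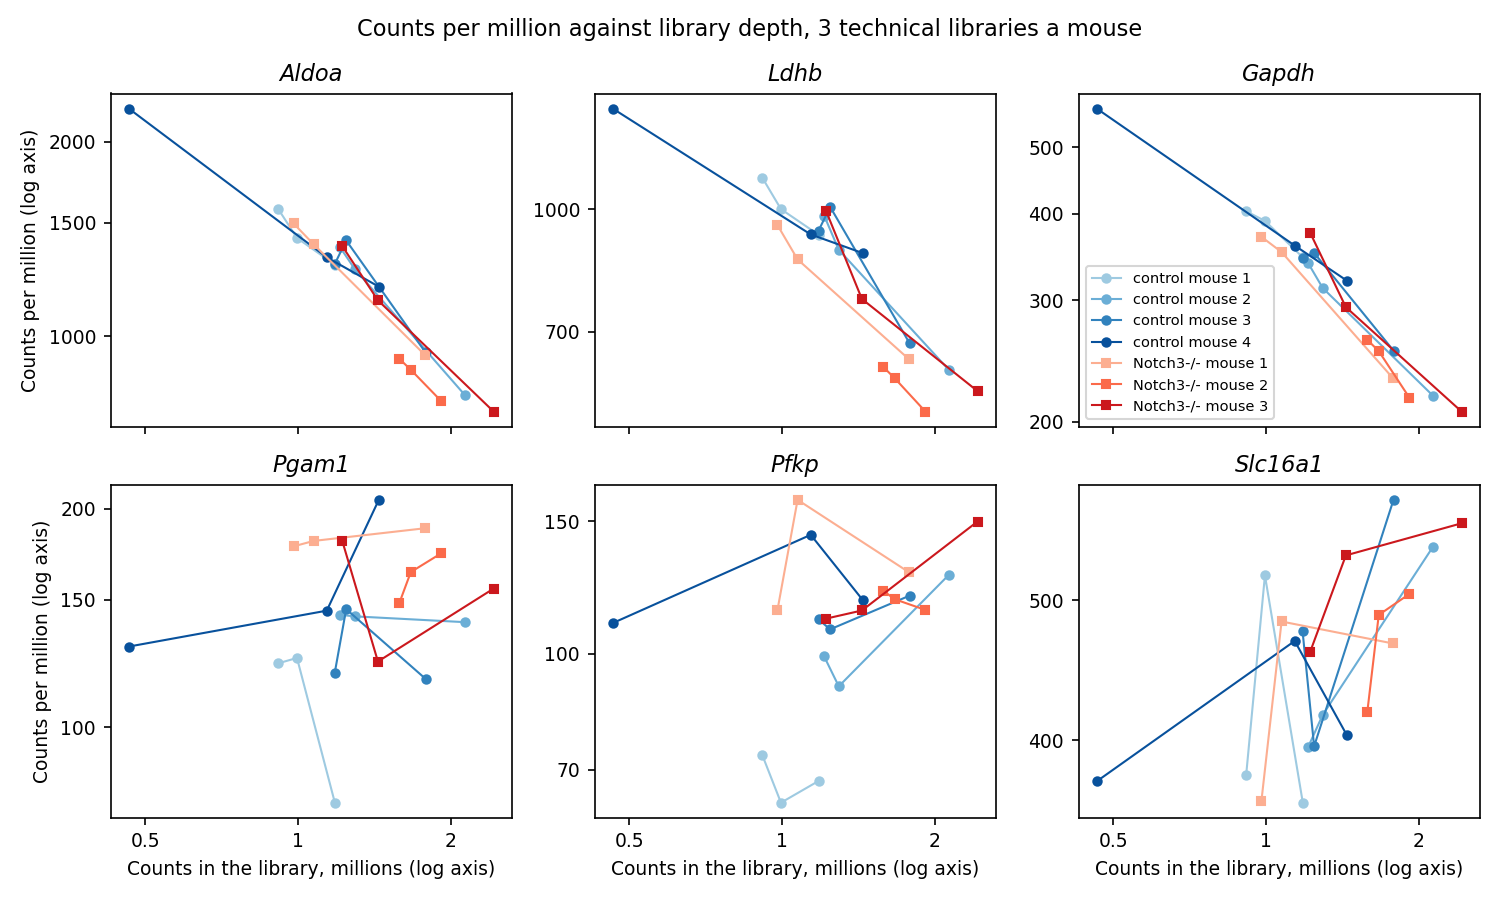
CPM of Aldoa, Ldhb, Gapdh, Pgam1, Pfkp and Slc16a1 in each of the 21 libraries against the counts in the library, both on log axes, with lines joining the 3 technical libraries of a mouse. Aldoa, Ldhb and Gapdh fall with depth in mice of both genotypes, though not between every pair of libraries of a mouse. The fitted slopes of Pgam1, Pfkp and Slc16a1 are above 0.

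Genes with dense counts along the transcript had lower slopes in the median. The median slope was -0.069 over the 32 glucose genes and 0.16 over all 14324 genes tested. For the 12 glucose genes that reached 0.3 counts per exon base or more in a library it was -0.43, and for the 406 tested genes at that density it was -0.21. Gapdh, with the second steepest negative slope of the set, reached 0.122 counts per exon base. That density divides by all annotated exons, which for Gapdh are 3.25 times as long as its longest coding transcript of 1273 bases. Its highest library count was 502, so its place below 0.3 depends on the length used. The split at 0.3 was not repeated with the transcript length. The highest density of a glucose gene was 0.972 counts per exon base for Eno3, and that of any gene in any library with exons of at least 200 bases was 1.97. By genotype, the 12 dense glucose genes had a median log2 difference of -0.19, with 1 above 0 and 11 below, and the 406 dense genes had -0.18, with 94 above 0 and 312 below. The other 20 glucose genes had a median of -0.076, against 0.0039 for the 13740 other genes with such exons.

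Depth also differed between the genotypes: Notch3-/- libraries were deeper by 0.36 on average on the log2 scale, with mouse medians of 3649833 counts in control and 5086740 in Notch3-/- mice. After these slopes were seen, limma-voom was fitted to the 21 libraries with the mouse as a random effect and log2 depth as a covariate. A single correlation within a mouse, 0.159, was shared by all genes. At that value the technical libraries of a mouse count as largely separate units, which can lower the p of such fits. In that fit the median log2 difference was -0.013 over the 32 genes and -0.015 over all genes tested. Without the covariate the same fit gave -0.15 and -0.023. The covariate moved the difference of Ldhb to -0.080, of Aldoa to 0.016, of Gapdh to 0.019 and of Pfkm to -0.021. Pgam1 was at 0.38, Eno1 at 0.34 and Pfkp at 0.31. Limma-voom with depth called 0 of the 32 glucose genes and 8 of all genes, and 3 glucose genes, Pgam1, Eno1 and Pfkp, were higher at an unadjusted p under 0.05, as were 7.22% of all genes, with 4.48% of all genes lower. Their adjusted p in limma-voom with depth (Benjamini-Hochberg) was 0.265, 0.265 and 0.378. The same 3 were under 0.05 unadjusted in the fit of the 21 libraries without depth (0.0157, 0.0359 and 0.0172), and not in limma-voom on the 7 mice (0.0701, 0.0838 and 0.0903). Ldhb was lower in each of 22 alternatives, with an unadjusted p under 0.05 in 10 of them and not in 12. Among the 12 were the fits without control mouse 1 (-0.25), without control mouse 4 (-0.27), without Notch3-/- mouse 2 (-0.24) and without Notch3-/- mouse 3 (-0.30), all on the log2 scale. The others were the mice labelled k, Notch3-/- mouse 3 alone, the hepatocyte covariate, technical libraries 1 and 3 each alone and the 3 fits of the 21 libraries.

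Isoform shares were computed within each family as the percent of its summed counts per exon base, and compared by exact permutation (two-sided) of the genotype labels, of which 35 arrangements exist, so that the smallest p is 0.0286. Pgam2 made up 91.7, 86.1, 89.5 and 86.6 (controls 1 to 4) and 84.3, 82.5 and 86.1 (Notch3-/- mice 1 to 3) percent of Pgam1 and Pgam2. The Notch3-/- mice were among the lower shares, but mouse 3 lay just above control mouse 2. The difference was -4.15 percentage points (exact permutation p 0.143). Ldhb made up 71.9, 69.1, 70.8 and 71.4 (controls 1 to 4) and 68.9, 65.7 and 69.5 (Notch3-/- mice 1 to 3) percent of Ldha and Ldhb. The lowest share was that of Notch3-/- mouse 2 and mouse 3 lay within the controls, with a difference of -2.79 points (exact permutation p 0.0857). The control mean was 70.8 percent, so that the difference is smaller without mouse 2. Pfkm made up 87.96, 83.9, 86.6 and 85.3 (controls 1 to 4) and 84.2, 84.2 and 81.98 (Notch3-/- mice 1 to 3) percent of the 3 phosphofructokinase genes. Notch3-/- mouse 3 had the lowest share and the other 2 lay near control mouse 2, with a difference of -2.51 points (exact permutation p 0.114). Eno3 made up 94.8, 93.9, 94.1 and 94.7 (controls 1 to 4) and 94.04, 89.7 and 93.5 (Notch3-/- mice 1 to 3) percent of the 3 enolase genes. Notch3-/- mouse 2 was low and the others lay close to the controls, with a difference of -1.97 points (exact permutation p 0.0571). The control mean was 94.4 percent, so that most of this difference came from mouse 2. Mouse 2 is also the mouse with the highest sum of hepatocyte markers.

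Of the shares of all 27 family members, 1 did not overlap between the genotypes, that of Pfkp, which was not among the 11 tested and was chosen after its values were seen. Pfkp made up 1.05, 1.86, 1.92 and 1.78 (controls 1 to 4) and 2.17, 2.41 and 2.29 (Notch3-/- mice 1 to 3) percent of the 3 phosphofructokinase genes, so that the 3 Notch3-/- mice lay above the 4 controls. The difference was 0.639 points (exact permutation p 0.0286, the smallest possible), with 0.331 after Benjamini-Hochberg adjustment over the 27. The size depends on the length used: the difference was 1.52 points with the longest coding transcript as the length and 1.96 without division by a length, each with an exact permutation p of 0.0571. Within a mouse the share rose with depth, by 0.654 (SE 0.11) points per log2 unit.

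The other 7 of the 11 shares also overlapped between the genotypes. Slc2a4 made up 81.03, 79.2, 85.4 and 85.4 (controls 1 to 4) and 84.4, 81.7 and 80.04 (Notch3-/- mice 1 to 3) percent of the 5 transporter genes, and Slc2a1 8.91, 10.4, 6.7 and 6.55 (controls 1 to 4) and 6.82, 9.77 and 8.85 (Notch3-/- mice 1 to 3) percent. Controls 3 and 4 and Notch3-/- mouse 1 had the highest Slc2a4 and the lowest Slc2a1 shares, so the spread ran across the genotypes. The differences were -0.673 points for Slc2a4 (exact permutation p 0.743) and 0.336 for Slc2a1 (exact permutation p 0.8). Within the mice labelled k they were -3.31 and 1.85 points, with exact permutation p of 0.2 for both where the smallest possible is 0.1. Hk2 made up 70.7, 69.4, 73.8 and 73.2 (controls 1 to 4) and 71.8, 70.1 and 71.6 (Notch3-/- mice 1 to 3) percent of Hk1 and Hk2, with a difference of -0.603 points. Pfkfb2 made up 32.97, 41.8, 49.4 and 46.04 (controls 1 to 4) and 44.5, 39.9 and 40.04 (Notch3-/- mice 1 to 3) percent of the 4 Pfkfb genes, with a difference of -1.04 points. Pygm made up 62.2, 62.9, 60.9 and 64.8 (controls 1 to 4) and 63.1, 62.2 and 59.7 (Notch3-/- mice 1 to 3) percent of Pygm and Pygb, with a difference of -0.997 points. Aldoa and Slc16a1 each made up over 98 percent of their families in every mouse, with differences of -0.248 and 0.233 points. After Benjamini-Hochberg adjustment over the 11 shares the exact permutation p ran from 0.314 to 0.83. The mean share was lower in Notch3-/- mice for 9 of the 11 and higher for 2. With the longest coding transcript as the length all 11 differences kept their sign and the groups overlapped. The size of 3 moved by over 1.5 times, to -3.86 points for Eno3, -3.77 for Pfkm and -0.155 for Aldoa. The shares themselves also depend on the length. In control mean they moved from 71.75 to 55.4 percent for Hk2, from 70.8 to 61.6 for Ldhb and from 85.95 to 78.4 for Pfkm. For Eno3 they moved from 94.4 to 87.65 and for Pfkfb2 from 42.5 to 57.9. By mean control level Pfkfb1 (19.3) then no longer led Pfkfb2 (16.8), with 41.5 against 69.2.

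Shares moved with depth within a mouse as well. Of the 11 shares, 7 had a negative slope beyond 2 SE on log2 library depth and 0 a positive one. The slope was -5.44 (SE 1.19) percentage points for Pgam2, -2.33 (SE 0.326) for Ldhb, -3.08 (SE 0.554) for Pfkm and -1.48 (SE 0.246) for Eno3. For each of these the form with the denser counts lost share with depth by the fitted slope, though not between every pair of libraries of a mouse. The part of depth in the differences of shares between genotypes was not tested.

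**Figure D4:**
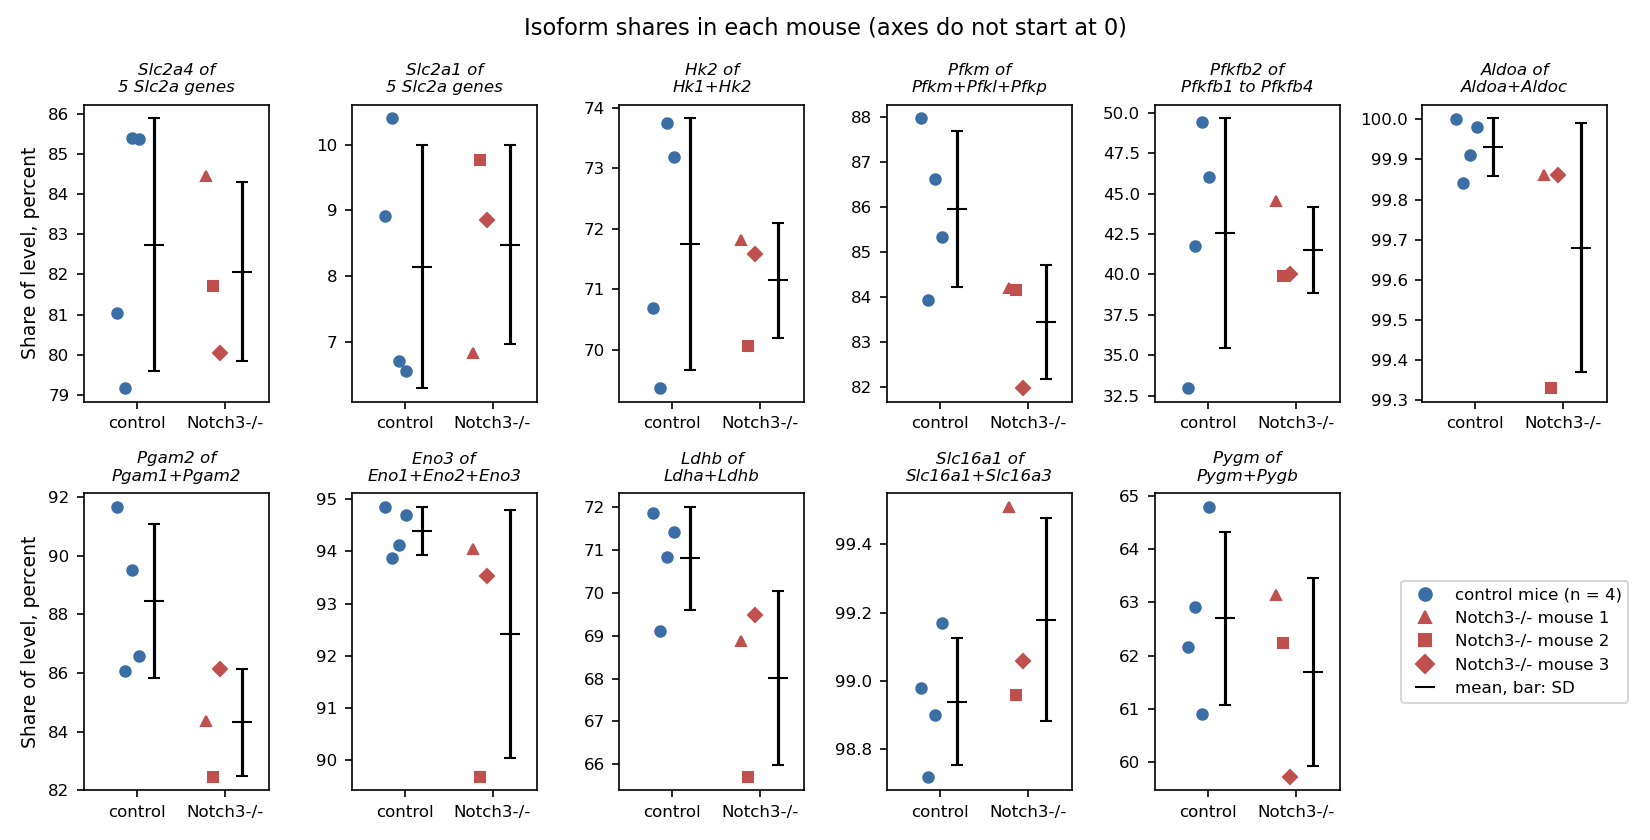
Share of each named gene in its family, in percent of the family's summed counts per exon base, in each mouse, with the mean and SD (n = 4 control, n = 3 Notch3-/-); axes do not start at 0. The genotypes overlap for the 11 shares drawn, which leave out Pfkp, and Notch3-/- mouse 2 is lowest for Aldoa, Pgam2, Eno3 and Ldhb.

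How far counts can separate such forms depends on their sequences. Within each pair, the most alike stretch of 50 coding bases was found in the GENCODE vM21 transcripts (GRCm38), written 5′ to 3′ on the transcript with the bases that differ in capitals. Shown are 6 pairs of abundant forms, each with its stretch within 1 exon, and not every pair. Pairs that are not shown can be more alike, with 2 differing bases for Eno3 and Eno2 and 3 for Pfkl and Pfkp. The Slc2a4 stretch lies at chr11:69946331-69946380 (minus strand) and that of Slc2a1 at chr4:119132189-119132238 (plus strand), with 5 differing bases. The Pfkm stretch lies at chr15:98120878-98120927 (plus strand) and that of Pfkl at chr10:78001364-78001413 (minus strand), with 5 differing bases. The Pgam2 stretch lies at chr11:5801728-5801777 (minus strand) and that of Pgam1 at chr19:41917668-41917717 (plus strand), with 5 differing bases. The Eno3 stretch lies at chr11:70660663-70660712 (plus strand) and that of Eno1 at chr4:150245118-150245167 (plus strand), with 4 differing bases. The Ldhb stretch lies at chr6:142498558-142498607 (minus strand) and that of Ldha at chr7:46850249-46850298 (plus strand), with 6 differing bases. The Pygm stretch lies at chr19:6388746-6388795 (plus strand) and that of Pygb at chr2:150814995-150815044 (plus strand), with 0 differing bases.
Slc2a4: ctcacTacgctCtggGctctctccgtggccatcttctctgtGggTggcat
Slc2a1: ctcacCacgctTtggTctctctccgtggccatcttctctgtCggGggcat
Pfkm: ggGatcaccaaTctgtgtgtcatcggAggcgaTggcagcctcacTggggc
Pfkl: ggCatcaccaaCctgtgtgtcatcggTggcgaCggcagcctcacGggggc
Pgam2: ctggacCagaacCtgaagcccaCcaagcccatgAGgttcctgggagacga
Pgam1: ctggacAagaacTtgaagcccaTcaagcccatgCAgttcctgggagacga
Eno3: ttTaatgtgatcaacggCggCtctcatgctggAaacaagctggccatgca
Eno1: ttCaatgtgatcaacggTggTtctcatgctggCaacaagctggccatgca
Ldhb: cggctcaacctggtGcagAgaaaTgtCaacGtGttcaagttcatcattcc
Ldha: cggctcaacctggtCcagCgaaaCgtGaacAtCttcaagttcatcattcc
Pygm: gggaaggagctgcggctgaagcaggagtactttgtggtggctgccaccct
Pygb: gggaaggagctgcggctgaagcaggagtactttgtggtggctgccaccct
Pygm and Pygb have no differing base in this stretch and share 13 windows of 50 bases, the only windows of that length that any of the 33 genes share with each other. Reads from the other pairs differ at the capitals at least. The length of the reads is not stated, nor is how reads that match several genes were counted.

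Copies outside the 33 genes shared more windows. Of the 50-base windows of the longest coding transcript, on either strand, Gapdh shared 1107 of 1224 windows (90.4%) with transcripts of 222 other genes, 213 of them pseudogenes. The 196 of these pseudogenes in the count table held 296, 411, 410 and 312 (controls 1 to 4) and 294, 391 and 449 (Notch3-/- mice 1 to 3) counts, against 1167, 1280, 1297 and 1136 (controls 1 to 4) and 1152, 1253 and 1382 (Notch3-/- mice 1 to 3) for Gapdh itself. Eno1 shared 1428 of 1978 windows (72.2%), most with Eno1b, Pgk1 1207 of 1776 windows (67.96%), and Pgam1 716 of 1726 windows (41.5%). The copies of these 3 genes that are in the count table held at most 5, 4 and 3 counts in a mouse. Pkm shared 820 of 2383 windows (34.4%), Ldhb 339 of 1255 windows (27.01%) and Gpi1 716 of 2835 windows (25.3%). Pfkfb2 shared 1086 of 1710 windows (63.5%) with the overlapping gene Gm29427, Pfkp 699 of 4096 windows (17.1%) with Pitrm1, Slc2a12 358 of 4118 windows (8.69%) with Tbpl1 and Gys1 241 of 3629 windows (6.64%) with Ruvbl2. Pgam2, Eno3, Pfkm, Slc2a4, Hk1, Hk2, Slc16a1 and Pfkfb1 were among the genes that shared no window. The strand setting of the counting is not stated, so antisense reads cannot be separated. Of 7 near-identical copies listed, 1 was tested, Aldoart1, with 10, 15, 11 and 7 (controls 1 to 4) and 10, 10 and 21 (Notch3-/- mice 1 to 3) counts and a log2 difference of 0.051. Whether copies took part in the differences was not tested.

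Genes around the pathway were read from lists, of which edgeR called 0 genes. For comparison, 7.34% of all genes tested were higher and 3.05% lower at an unadjusted p under 0.05. Glycogen handling had 23 genes tested, with 2 higher and 1 lower at an unadjusted p under 0.05 and a median log2 difference of 0.018. The largest differences in it were in Ppp1r3b (1.54), which targets phosphatase to glycogen, Stbd1 (1.15), a glycogen-binding protein, Pgm2l1 (-0.97) and Pgm2 (0.61), all log2 differences. Ppp1r3b had 225, 299, 495 and 263 (controls 1 to 4) and 690, 2133 and 561 (Notch3-/- mice 1 to 3) counts, with Notch3-/- mouse 2 far above the rest. Side branches of glycolysis had 19 genes tested, with 5 higher and 0 lower at an unadjusted p under 0.05 and a median log2 difference of 0.38. Tkfc (3.51) and Khk (2.23) of fructose metabolism led, before Gnpnat1 (0.87) and Tkt (0.72). Khk had 112, 121, 101 and 84 (controls 1 to 4) and 355, 1283 and 185 (Notch3-/- mice 1 to 3) counts, high in the 2 mice with hepatocyte RNA and higher in mouse 2 than in mouse 1. NADH shuttles had 10 genes tested, with 1 higher and 1 lower at an unadjusted p under 0.05 and a median log2 difference of -0.18. Gpd1, the cytosolic glycerol 3-phosphate dehydrogenase, had 316, 648, 548 and 453 (controls 1 to 4) and 571, 2039 and 1066 (Notch3-/- mice 1 to 3) counts and a log2 difference of 1.01. Gpd2 (0.56), Mdh2 (-0.33) and Slc25a11 (-0.27) followed. Insulin signalling and GLUT4 traffic had 22 genes tested, with 0 higher and 2 lower at an unadjusted p under 0.05 and a median log2 difference of -0.040. Its largest differences were in Txnip (-0.59), an inhibitor of glucose uptake, Sort1 (-0.46), Irs2 (-0.41) and Tbc1d4 (-0.35), the Akt substrate that holds GLUT4 inside the cell.

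Liver and other forms of the same steps were followed in a list of 23 genes, of which 12 were tested, with 4 higher and 0 lower at an unadjusted p under 0.05 (7.34% and 3.05% of all genes tested) and a median log2 difference of 0.59. Slc2a2, the GLUT2 of liver, had 6, 4, 4 and 5 (controls 1 to 4) and 175, 1179 and 11 (Notch3-/- mice 1 to 3) counts. Pklr, the pyruvate kinase of liver and red blood cells, had 0, 1, 0 and 0 (controls 1 to 4) and 91, 910 and 2 (Notch3-/- mice 1 to 3), and Gys2, the liver glycogen synthase, 0, 1, 0 and 0 (controls 1 to 4) and 41, 456 and 1 (Notch3-/- mice 1 to 3). These 3 genes were near 0 in the controls and in Notch3-/- mouse 3 and high in Notch3-/- mice 1 and 2, with mouse 2 the highest. Pygl, the liver glycogen phosphorylase, had 32, 79, 43 and 26 (controls 1 to 4) and 278, 1913 and 101 (Notch3-/- mice 1 to 3) counts and a log2 difference of 3.83. Slc2a9 differed by 1.86, Slc16a7 by 0.58, Ldhd by 0.27, Bpgm by -0.36 and Bsg by -0.22. Adpgk had 77, 113, 140 and 65 (controls 1 to 4) and 161, 194 and 176 (Notch3-/- mice 1 to 3) counts and a log2 difference of 0.59, with the level of each Notch3-/- mouse above all controls. The summed hepatocyte markers given above are high in the same mice as the liver forms, and their part in these differences was not tested list by list.

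**Figure D5:**
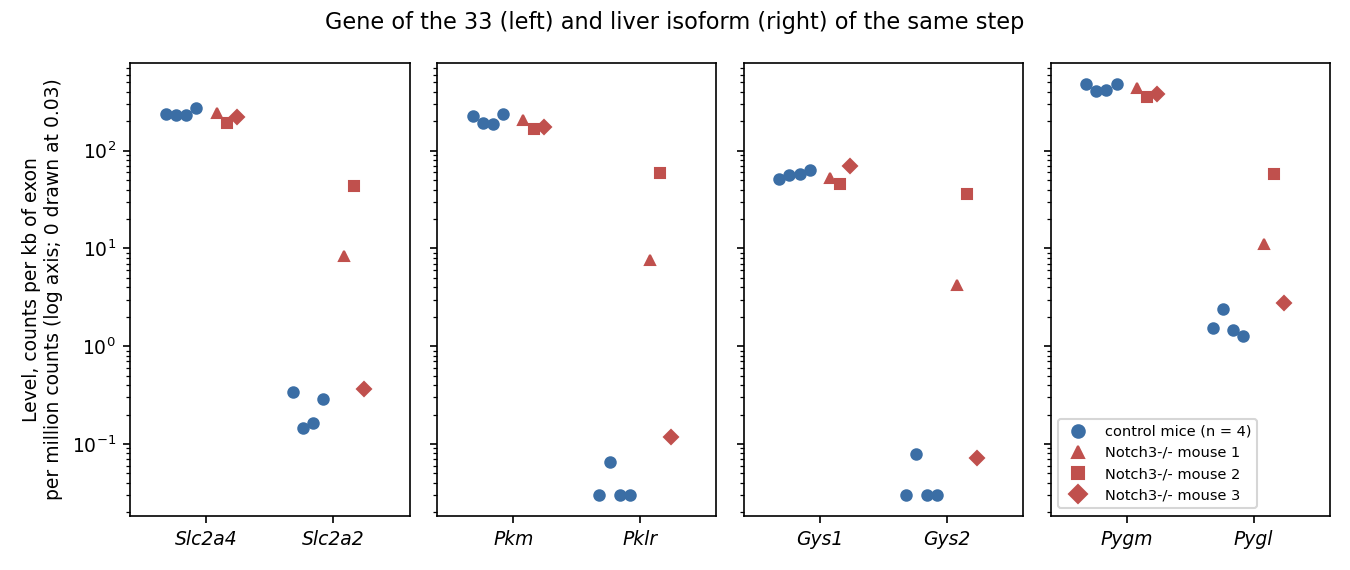
Level in each mouse, in CPM per kilobase of exon on a log axis, of 4 genes of the set (left in each panel) and the liver form of the same step (right); a value of 0 is drawn at 0.03. Notch3-/- mice 1 and 2 are above the controls for the liver forms, and the genes of the set show no such rise.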

How the data were processed

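The deposited unit is counts, whole numbers of reads per Ensembl gene that the authors did not normalize; per the labels CASAVA and the build mm10 were used upstream, and the aligner, the annotation, the strand setting and the treatment of duplicate reads are not stated. No column was left out. The 92 spike-in sequences, with 34 counts in all, were left out. Counts of the 3 technical libraries were summed per mouse, and the mouse was the unit. Depth was 3046326 to 5167869 counts per mouse. Differences were tested in R 4.3.3 with edgeR 4.0.16 (filterByExpr, TMM, quasi-likelihood F-test, genotype as the only term, Benjamini-Hochberg adjustment) on all genes that passed the filter, with calls at an adjusted p under 0.05 and a fold change of at least 1.5. Standard errors were taken from the F statistic, and 95% intervals from its degrees of freedom. Levels are TMM-scaled CPM per kilobase of the union of a gene's exons in GENCODE vM21 (GRCm38). Shares were compared by exact permutation. The pipeline was tested on simulated data.

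Alternatives were DESeq2 1.42.0, limma-voom (limma 3.58.1) on 7 mice and on 21 libraries with the technical number as a block, RLE factors, 2 other filters on low counts, omission of each mouse, only the mice labelled k, only Notch3-/- mouse 3, a hepatocyte score as a covariate, each technical library alone and a correction of dense counts. A further 2 fits, limma-voom on 21 libraries with and without log2 depth, the length of the longest coding transcript for levels and shares, and the share of Pfkp were chosen after seeing the data. The members, the lists and the rule for named genes were chosen with earlier results of these data known. Named are all 33 genes, Notch3, in each pathway list up to 4 tested genes with the largest absolute log2 difference, in the lists of liver and other forms and of near-identical copies also genes with at least 50 counts in a mouse (2 are left out of the text), and in each of the 10 cell type lists its most abundant gene and those at 0.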

Additional observations from a re-analysis of the deposited data

How the results depend on the processing

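No glucose gene was called in those of the 22 alternatives, by edgeR, DESeq2 or limma-voom, in which it was tested (22 for 28 genes, 21 for Pfkfb4, 19 for Slc16a3, 18 for Slc2a3 and Eno2, 2 for Aldoc), with 0 to 6 of them at an unadjusted p under 0.05, and the smallest adjusted p of any was 0.155 (Eno1 without Notch3-/- mouse 3, edgeR). Over the alternatives 6 genes stayed lower (Slc2a4, Gpi1, Pfkm, Pkm, Ldhb and Pygm), 2 stayed higher (Pfkp and Pgam1) and 24 took both signs. The median of the glucose genes tested, 29 to 33 of them, was below 0 in each. It was not below the median of all genes tested in each, with -0.013 against -0.015 in the fit with depth. With Notch3-/- mouse 3 alone it was -0.037 against -0.0175. Where values below differ from those of the report, the cause was not tested.

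Leaving out each mouse in turn gave 1 to 936 calls, 629 to 1748 genes higher and 302 to 700 lower at an unadjusted p under 0.05, and 0 to 6 glucose genes. The most calls came without Notch3-/- mouse 3, and the 6 glucose genes without Notch3-/- mouse 1. Log2 differences that took both signs ran over these ranges: Slc2a1 -0.21 to 0.041, Slc2a8 -0.31 to 0.039, Slc2a12 -0.0009 to 0.23, Hk1 -0.054 to 0.10, Hk2 -0.11 to 0.082, Pfkl -0.025 to 0.15, Pfkfb1 -0.26 to 0.076, Pfkfb3 -0.017 to 0.53, Pfkfb4 -0.35 to 0.19, Eno2 -1.14 to 0.36, Slc16a3 -0.42 to 0.069 and Gys1 -0.24 to 0.080. Differences in share that did so, in percentage points, were Slc2a4 -1.86 to 0.34, Slc2a1 -0.31 to 1.17, Hk2 -1.4 to 0.0645 and Pfkfb2 -4.23 to 1.24.

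With DESeq2 on 28735 genes tested, a change of both the tool and the filter, 597 genes were called in all. Under an unadjusted p of 0.05 were 2 glucose genes, Ldhb and Aldoc. With limma-voom on the 7 mice, 663 genes were higher at an unadjusted p under 0.05. The log2 difference of Pfkfb4 was of the other sign, 0.030. With every gene that had a count, 639 genes were called in all, 1771 genes were higher at an unadjusted p under 0.05 and 2 glucose genes were under an unadjusted p of 0.05. Aldoc, which the filter removes, had a log2 difference of 1.96 in DESeq2 and 1.87 in edgeR with every gene, with adjusted p of 0.456 and 0.474. RLE factors, a minimum of 10 counts in every mouse and the correction of dense counts changed no sign and no count by over 1.5 times.

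Within the mice labelled k, 0 genes were called in all, also not Notch3, 204 genes were lower at an unadjusted p under 0.05 and 0 glucose genes were under an unadjusted p of 0.05. Log2 differences of the other sign were Slc2a1 0.20, Slc2a8 0.065, Hk2 0.0014, Pfkfb1 0.17 and Eno2 0.50. With Notch3-/- mouse 3 alone against the 4 controls, where the lone mouse is assumed to vary like the controls, 335 genes were higher at an unadjusted p under 0.05 and 0 glucose genes were under an unadjusted p of 0.05. Those of the other sign were Slc2a1 0.023, Slc2a3 0.43, Slc2a8 0.16, Hk1 -0.023, Pfkfb3 -0.54, Eno2 0.90 and Gys1 0.27 on the log2 scale. Differences in share were -0.0702 for Aldoa, -0.854 for Eno3, -1.33 for Ldhb and -2.97 for Pygm, in percentage points. The other shares moved too, given here as percent in mouse 3 and as the control mean. They were 81.98 and 85.95 for Pfkm, 86.13 and 88.46 for Pgam2, and 80.04 and 82.74 for Slc2a4. For Slc2a1 they were 8.85 and 8.14, for Pfkfb2 40.04 and 42.54, for Hk2 71.58 and 71.75, and for Slc16a1 99.06 and 98.94. With the hepatocyte score as a covariate, 0 genes were called in all, also not Notch3, 273 genes were higher at an unadjusted p under 0.05 and 0 glucose genes were under an unadjusted p of 0.05. On the log2 scale the sign turned for Slc2a3 0.60, Slc2a8 0.13, Hk1 -0.10, Pfkfb3 -0.95, Eno1 -0.067, Eno2 1.06, Gys1 0.37 and Pygb 0.040.

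From technical library 1 alone, 48 genes were called in all, 516 genes were higher at an unadjusted p under 0.05, 228 genes were lower at that threshold and 3 glucose genes were under an unadjusted p of 0.05. Of the other sign, on the log2 scale, were Slc2a12 -0.028, Hk1 -0.35, Pfkl -0.24, Pfkfb3 -0.15, Pfkfb4 0.68, Tpi1 0.0043, Pgk1 0.050, Eno3 0.020 and Slc16a1 -0.076. From technical library 2 alone, 39 genes were called in all and 3 glucose genes were under an unadjusted p of 0.05. Signs turned for Hk1 -0.0095, Hk2 0.10 and Pfkfb2 0.093 in log2 difference. From technical library 3 alone, 77 genes were called in all. Log2 differences of the other sign were Hk2 0.21 and Pygb 0.014.

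The technical number was taken as a block, and whether it marks a shared step is not stated. Deviations of libraries from their mouse mean had a median correlation across genes of -0.015 over 63 pairs of libraries with the same number and 0.0035 over 126 pairs with different numbers, and 4 of 21 libraries were most like their own number. With limma-voom on 21 libraries and the technical number as a block, 31 genes were called in all, 676 genes were lower at an unadjusted p under 0.05 and 3 glucose genes were under an unadjusted p of 0.05. The fits with and without depth were chosen after seeing the data. With log2 depth as a covariate in limma-voom on 21 libraries, 8 genes were called in all and 3 glucose genes were under an unadjusted p of 0.05. Those of the other sign were Hk1 -0.023, Hk2 0.029, Aldoa 0.016, Tpi1 0.023, Gapdh 0.019, Pgam2 0.041, Eno3 0.054 and Ldha 0.050 on the log2 scale. The median over the 32 genes was -0.013, against -0.015 over all genes tested. In the same fit without the covariate, 54 genes were called in all, 725 genes were lower at an unadjusted p under 0.05 and 3 glucose genes were under an unadjusted p of 0.05.

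The 95% interval leaves the direction undetermined for 31 of the 32 genes, and Aldoc, Slc2a3, Eno2, Slc16a3, Pfkfb3 and Pfkfb4 have the lowest levels. With the longest coding transcript as the length, chosen after seeing the data, the differences of all 11 shares kept their sign and 3 moved in size by over 1.5 times. The shares themselves moved too, in control mean from 71.75 to 55.4 percent for Hk2 and from 42.5 to 57.9 for Pfkfb2. The Pfkp share differed by 0.437 to 0.728 percentage points when each mouse was left out, by 1.52 with that length and by 1.96 without division by a length. Depth and genotype differ together, since 2 of the 3 Notch3-/- mice are the deepest.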
